A study of Mus musculus with 4 samples.

Results

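A set of 6 genes with many Sp6 intervals in dental epithelium was described, namely Tanc1, Frmd4b, Iqgap2, Lrrc1, Myo16 and Mob3b, which the deposited tables write as Mobkl2b. They were chosen by name for the number of epithelium intervals listed for them, so their epithelium counts are a description. The 6 genes are among the 5560 genes named in the tables of the series and hold 36 intervals of the 3811 called in epithelium and 47 of the 11436 called in mesenchyme. Sp6, or epiprofin, is a zinc-finger transcription factor of the developing tooth, and its DNA occupancy was measured by chromatin immunoprecipitation with sequencing (ChIP-seq). The groups are Sp6 antibody on dental epithelium, Sp6 antibody on dental mesenchyme and, for each tissue, input chromatin with no antibody. All came from molars of C57BL/6 mice at P1 (postnatal day 1), 30 molars being named in the labels, and each group is 1 library. No genotype or treatment is named in the labels, the antibody was made in house, and the files hold no expression values, so the labelled tissues could not be checked against marker genes.

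The encoded proteins are scaffolds, adaptors and actin-binding proteins, most of them known from cell junctions, synapses or the actin cytoskeleton. Scaffold proteins bind several partners at once and hold them at a junction, a synapse or an actin-rich cortex. In epithelia such as the enamel organ, Scribble-type and PAR-type scaffolds mark the basolateral and apical sides of a cell, and actin regulators act on the junctions between them. Sp6 belongs to the SP family, whose members are known for binding GC-rich boxes. An interval is a region where the authors' peak caller found an excess of sequenced fragments, and its peak value is the deposited fragment density in its highest bin. Whether the libraries were scaled to each other is not given in the sources used here and read totals are not known, so a ratio between tissues compares deposited numbers and is no measure of stronger or weaker binding. With 1 library per group there was no replicate error and no test, and Wilson 95% intervals on shares cover counting error only.

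Tanc1 had 8 epithelium intervals, more than any other gene of the epithelium table. Frmd4b, Iqgap2 and Myo16 had 6 each, and Lrrc1 and Mob3b had 5 each. Of the 2236 genes of the epithelium table, 17 (0.76%) had 5 or more intervals, and the 6 described here were chosen from among these 17. In mesenchyme Tanc1 had 11 intervals, Mob3b 9, Iqgap2 8, Frmd4b and Myo16 7 each and Lrrc1 5. There, 180 of 5385 genes (3.34%) had 5 or more. The other 11 genes with 5 or more epithelium intervals were Kirrel3 and Tenm4 with 6, and Arhgap6, Cadm1, Cadps2, Lrmda, Plxna4, Ptprg, Robo1, Sema5a and Srgap1 with 5. A further 14 genes had 4.

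All 6 genes are long, and interval number moved with gene length. Gene lengths in RefSeq (GRCm38.p6) were 234.4 kb for Tanc1, 330.8 kb for Frmd4b, 265.1 kb for Iqgap2, 115.6 kb for Lrrc1, 480.8 kb for Myo16 and 208.5 kb for Mob3b. The 11 other genes with 5 or more epithelium intervals were 266.9 to 1036.6 kb long, so Lrrc1, Tanc1, Iqgap2 and Mob3b were shorter than each of them. Of 2427 protein-coding genes of 100 kb or longer, 17 (0.7%) had 5 or more epithelium intervals, and the mean was 0.451 epithelium and 1.33 mesenchyme intervals per gene, against 0.114 and 0.355 over all 21631 protein-coding genes.

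Per 100 kb of gene length, Lrrc1 had 4.32 epithelium intervals, and none of these 2427 genes had a higher value. Shorter genes were not ranked, such as Slc39a14 with 4 epithelium intervals in 48.0 kb and Amelx with 4 in 11.1 kb. Listed intervals outside a gene were counted too, 1 of the 5 in Lrrc1. Tanc1 had 3.41, with 1 gene above it. Mob3b had 2.40 with 8 genes above it, Iqgap2 2.26 with 10 and Frmd4b 1.81 with 24. Myo16, the longest, had 1.25 with 82 genes above it. In mesenchyme the numbers of genes with a higher density were 7 for Tanc1, 11 for Lrrc1, 12 for Mob3b, 44 for Iqgap2, 153 for Frmd4b and 354 for Myo16. Among genes of 100 kb or longer, Lrrc1 and Tanc1 were thus near the top per unit of length in both tissues. Myo16 ranked lowest of the 6 in both. The genes were chosen on epithelium counts, and 30 of their 47 mesenchyme intervals were shared with epithelium. Both rankings are therefore a description, and neither is support for the other.

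**Figure D1:**
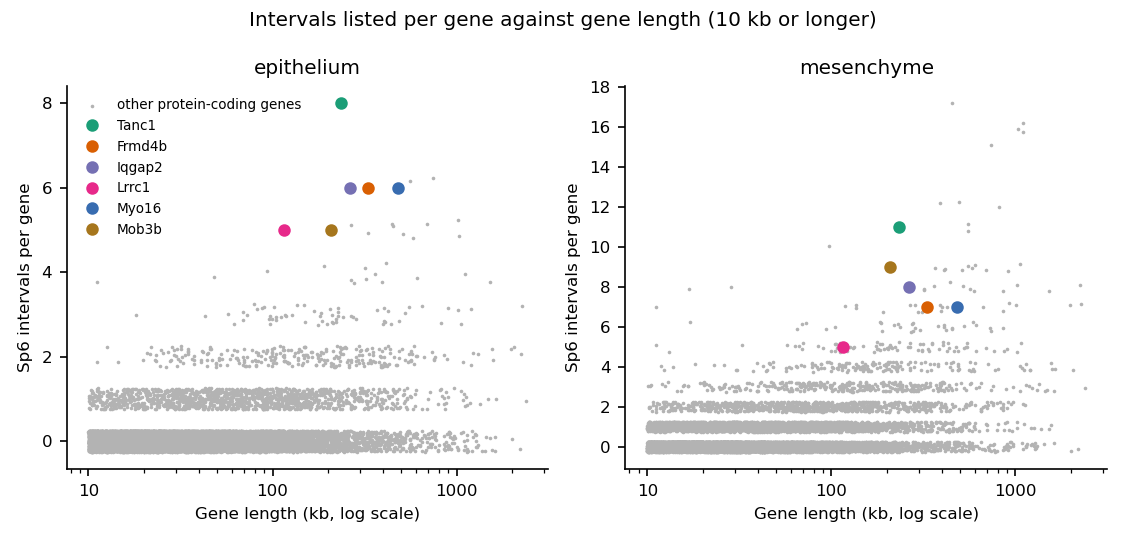
Sp6 intervals listed per gene against gene length in kb (log scale) for protein-coding genes of 10 kb or longer, with epithelium on the left and mesenchyme on the right. Grey points are other genes, moved slightly up or down so that they can be told apart, and coloured points are the 6 genes. Tanc1 stands highest in epithelium with 8 intervals, and Lrrc1 reaches 5 at 115.6 kb.

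Most of the positions were the same in both tissues. Of the 36 epithelium intervals of the 6 genes, 30 (83.3%, 68.1 to 92.1%) overlapped a mesenchyme interval by at least 1 bp, close to the 87.4% of all 2381 epithelium intervals that the gene tables list. The 6 genes therefore did not stand apart in sharing. Of their 47 mesenchyme intervals, 30 (63.8%, 49.5 to 76.0%) were shared, where the share over all 7211 listed mesenchyme intervals was 28.7%. Since the genes were chosen for epithelium intervals, nothing is read from that gap. The centres of shared intervals were a median of 32 bp apart, and 27 of 30 pairs lay within 100 bp. Over all pairs the median was also 32 bp, and 1990 of 2083 lay within 100 bp, so the 6 genes did not stand apart here either.

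Peak values of the 6 genes in epithelium had a median of 29 (range 13 to 63) and the library median was 27, with 19 of 36 intervals above it (49.5% of all). In mesenchyme the peak values had a median of 45 (16 to 179) and the library median was 34, with 29 of 47 above it (49.3% of all). The highest values of the libraries were 294 in epithelium and 584 in mesenchyme. The highest of the 6 genes were 63 in Iqgap2 in epithelium, above 92.4% of the listed intervals, and 179 in Myo16 in mesenchyme, above 98.8%.

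**Figure D2:**
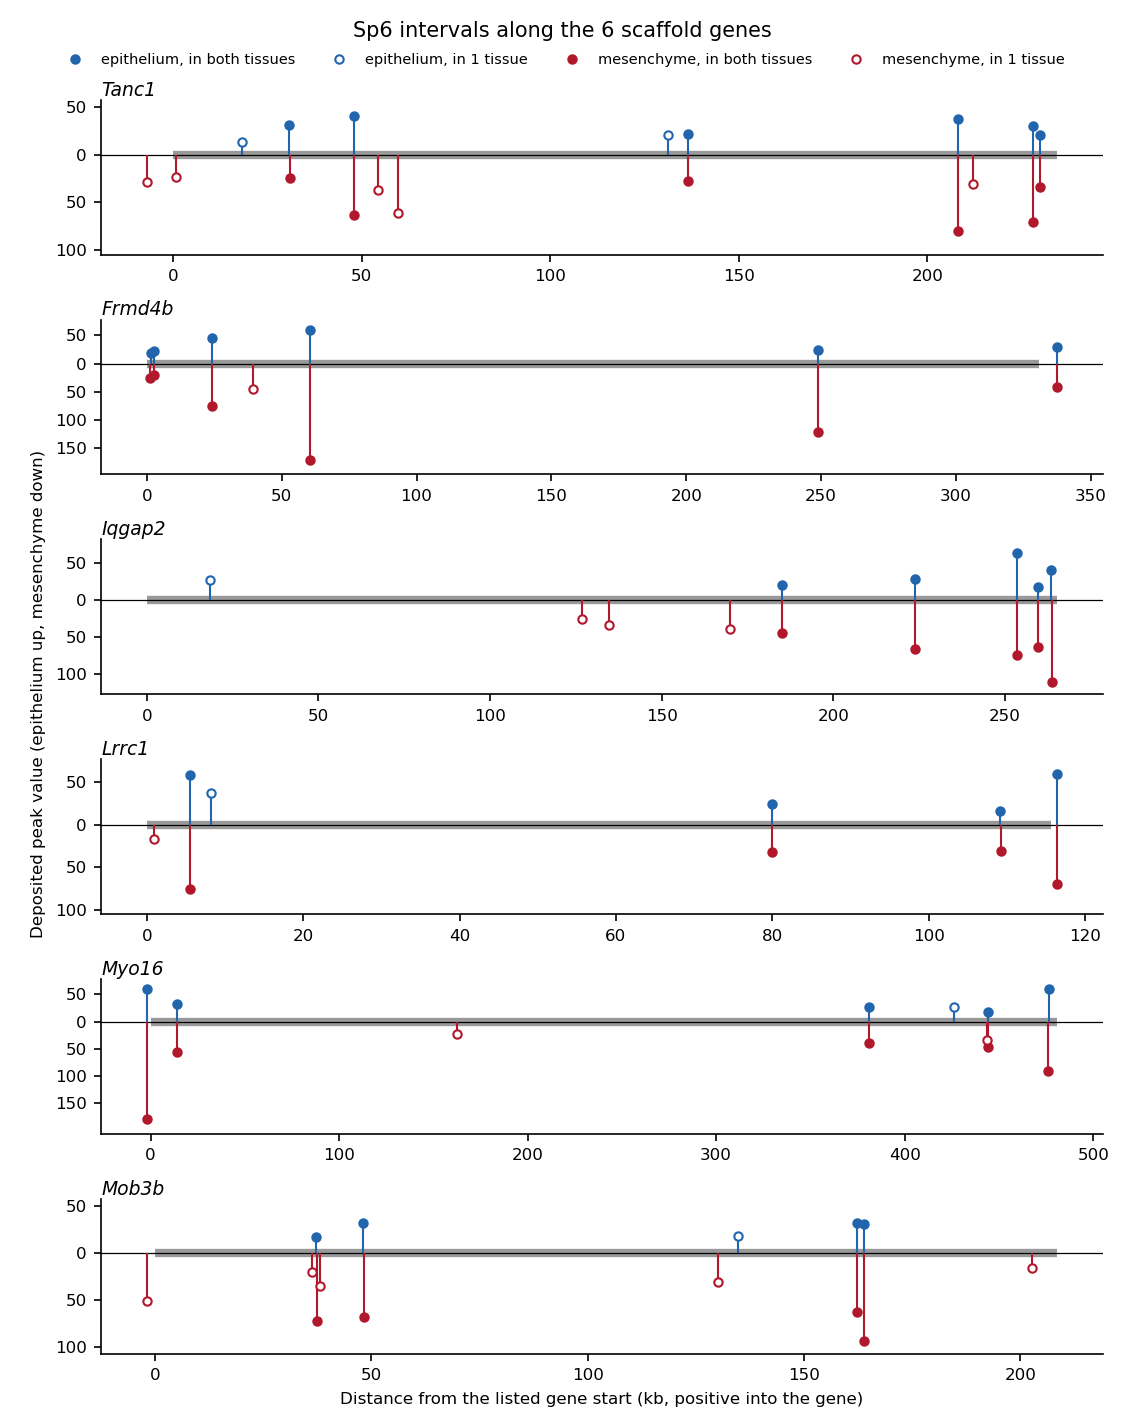
Peak value (deposited units) of each Sp6 interval against its distance in kb from the gene start that the tables use, 1 row per gene, with epithelium drawn upwards and mesenchyme downwards. Filled points are intervals found in both tissues, open points those in 1 tissue, and the grey bar is the RefSeq gene length. Shared positions recur along each gene, and the open points are mostly low.

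No interval of the 6 genes overlapped the 250 bases upstream of the listed start. RefSeq promoter sequence on GRCm38.p6 is shown for the members with 1 RefSeq start, because at these it is clear which start is meant. Myo16 and Mob3b have an interval about 2 kb upstream, and Iqgap2 has none listed within 18 kb. GRCm38.p6 positions are not those of the mm9 intervals, and no sequence of the intervals themselves is given here. The 250 bases before the start read 5′ to 3′ on the strand of the gene, with matches to the GC box GGGCGG on either strand in capitals.
Iqgap2 (chr13:95891923-95892172, minus strand): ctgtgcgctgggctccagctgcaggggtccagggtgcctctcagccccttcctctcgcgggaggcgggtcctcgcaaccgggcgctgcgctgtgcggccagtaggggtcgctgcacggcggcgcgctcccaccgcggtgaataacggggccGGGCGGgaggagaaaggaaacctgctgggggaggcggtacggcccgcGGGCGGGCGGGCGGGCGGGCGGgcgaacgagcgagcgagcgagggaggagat
Myo16 (chr8:10153661-10153910, plus strand): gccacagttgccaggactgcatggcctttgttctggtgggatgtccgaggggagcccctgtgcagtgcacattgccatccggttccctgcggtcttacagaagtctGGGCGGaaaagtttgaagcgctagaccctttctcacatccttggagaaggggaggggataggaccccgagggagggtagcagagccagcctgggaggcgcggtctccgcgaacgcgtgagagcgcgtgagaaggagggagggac
Mob3b (chr4:35157485-35157734, minus strand): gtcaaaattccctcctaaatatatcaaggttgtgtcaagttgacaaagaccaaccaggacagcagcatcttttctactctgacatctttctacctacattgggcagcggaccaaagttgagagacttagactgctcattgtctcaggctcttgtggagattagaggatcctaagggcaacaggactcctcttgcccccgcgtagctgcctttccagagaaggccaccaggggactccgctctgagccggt

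Counting overlapping matches, the box occurred 6 times at Iqgap2, once at Myo16 and not at all at Mob3b. The GC contents were 75.2%, 62% and 50.4% in that order. Over 21045 such windows of protein-coding genes, 43.1% held the box, and the median GC content was 55.6%. Of the 10 windows that RefSeq gives for the 6 genes, 5 held it, and these belonged to 5 of the genes. Iqgap2, with the most boxes of the 3, had its nearest listed interval at 18.4 kb in epithelium and 126.8 kb in mesenchyme. In mesenchyme an interval upstream of the start, beyond the 10 kb for which genes are listed, lay nearer. Myo16, with 1 box, had the interval 2.0 kb upstream in both tissues. Mob3b, without a box in this window, had the mesenchyme interval 1.9 kb upstream. Tanc1, Frmd4b and Lrrc1 have more than 1 RefSeq start and also held the box. Their nearest listed intervals were at 18.4, 1.6 and 5.6 kb in epithelium and at 0.8, 1.2 and 0.9 kb in mesenchyme. A match is a description of letters and not of binding.

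Tanc1 encodes a scaffold with ankyrin and tetratricopeptide repeats that is known from the postsynaptic density. Its epithelium intervals were all inside the gene, at 18.4, 30.8, 48.0, 131.3, 136.6, 208.0, 228.0 and 229.8 kb from the start. Their peak values in that order were 13, 31, 41, 21, 22, 38, 30 and 21. The values at 18.4 and 131.3 kb, which are 13 and 21, belong to intervals with no mesenchyme counterpart, and 13 is among the lowest of the epithelium library.

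At the 6 shared positions of Tanc1 the mesenchyme peak values were 24, 63, 28, 80, 71 and 34, again from the start towards the end. The interval at 30.8 kb (chr2:59480668-59481178) was higher in epithelium, with 31 in epithelium against 24 in mesenchyme, and the other 5 were higher in mesenchyme. Mesenchyme alone had intervals 7.0 kb upstream of the start (29) and at 0.8 kb (23), 54.3 kb (37), 59.6 kb (61) and 212.0 kb (31) inside the gene. The one at 0.8 kb, whose edge lay 558 bp from the start, was the only interval of the 6 genes on a CpG island. The intervals from 7.0 kb upstream to 31.0 kb are also listed for LOC100039016, which the tables do not describe further.

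Frmd4b encodes a FERM-domain protein that binds the ARF exchange factor cytohesin 3 and is linked to PAR3 at epithelial junctions. All 6 of its epithelium intervals were shared. The peak values were 19 in epithelium and 25 in mesenchyme at 1.6 kb, 23 and 21 at 2.6 kb, and 45 and 76 at 24.3 kb. Further in they were 60 in epithelium and 171 in mesenchyme at 60.5 kb, and 24 and 122 at 248.9 kb. Past the gene end, 337.3 kb from the start, they were 30 and 41. The interval at 60.5 kb (chr6:97506654-97507342 in epithelium) was the highest of the gene in both tissues, with 200 higher intervals in the epithelium table and 95 in the mesenchyme table. At 248.9 kb the log2 ratio of epithelium to mesenchyme was -2.35, the lowest of the 30 pairs. The centres of both intervals had the same listed position there, as also at 60.5 kb, with bins of about 32 bp. Mesenchyme alone had an interval at 39.3 kb, with a peak value of 45.

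Iqgap2 encodes an IQGAP protein, which binds actin, calmodulin and the active forms of CDC42 and RAC1. Its intervals lay towards the far end of the gene. In epithelium the peak values were 20, 28, 63, 18 and 40 at 185.0, 223.7, 253.5, 259.6 and 263.5 kb from the start, all shared, and 27 at 18.4 kb, which was not. At the shared positions mesenchyme had 45, 66, 75, 64 and 111. The highest value was thus at 253.5 kb in epithelium (chr13:96408076-96408730) and at 263.5 kb in mesenchyme (chr13:96397660-96398758), about 10 kb apart. Mesenchyme alone had 26, 34 and 39 at 126.8, 134.5 and 170.0 kb. The epithelium interval at 18.4 kb (chr13:96643331-96643788) was the only one in the first part of the gene. The nearest mesenchyme interval was 92821 bp away, upstream of the gene start and not listed for Iqgap2. The promoter window with 6 GC boxes thus had no listed interval near it in either tissue. The interval at 185.0 kb is also listed for F2rl2 and the mesenchyme interval at 263.5 kb for F2r, genes of protease-activated receptors, and the epithelium table counts a second gene at 263.5 kb without naming it, so these cannot be assigned to Iqgap2 alone.

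Lrrc1 encodes LANO, a leucine-rich repeat relative of Scribble that lies on the basolateral side of epithelial cells. It was the only one of the 6 genes with as many intervals in epithelium as in mesenchyme, 5 each. The shared intervals had peak values of 58 in epithelium and 75 in mesenchyme at 5.6 kb, 24 and 32 at 80.0 kb, and 16 and 31 at 109.2 kb. Past the gene end, at 116.4 kb, they were 59 and 70 (chr9:77275031-77275810 in epithelium). The strongest epithelium values thus stood at the ends of the gene, with weaker ones between. An interval at 8.2 kb (chr9:77383482-77383984), 2.6 kb from its neighbour, was called in epithelium alone with a peak value of 37. It was the only one of the 6 unshared epithelium intervals above the library median of 27, and the nearest mesenchyme interval was 1670 bp away. Mesenchyme alone had a weak interval at 0.9 kb, with a peak value of 17.

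Myo16 encodes an unconventional myosin with ankyrin repeats that is known mainly from neurons. About 2.0 kb upstream of the start the peak value was 59 in epithelium (chr8:10151631-10152262), against 179 in mesenchyme (chr8:10151619-10152328). The mesenchyme value is the highest of the 47, and 83 intervals of the mesenchyme table were higher. Inside the gene the shared peak values were 32 in epithelium and 55 in mesenchyme at 14.1 kb, 26 and 39 at 381.3 kb, 18 and 46 at 444.4 kb, and 60 and 91 at 476.3 kb. Between 14.1 and 381.3 kb epithelium had no interval, a gap of 367.2 kb, and mesenchyme had 1, with a peak value of 23 at 162.4 kb. Epithelium alone had 27 at 426.3 kb. Mesenchyme alone also had 34 at 443.6 kb, 134 bp from the edge of the epithelium interval at 444.4 kb.

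Mob3b encodes a member of the MOB family of small kinase adaptors, whose MOB1 relatives activate the LATS and NDR kinases. Its shared intervals had peak values of 17 in epithelium and 72 in mesenchyme at 37.3 kb, 32 and 68 at 48.2 kb, 32 and 62 at 162.3 kb, and 31 and 93 at 163.8 kb. All 4 were higher in mesenchyme. Epithelium alone had 18 at 134.8 kb, and the nearest mesenchyme interval, with 31 at 130.1 kb, lay 4035 bp away. Mesenchyme alone had 20 and 35 at 36.2 and 38.2 kb, on each side of the shared interval at 37.3 kb, and 16 at 202.8 kb. It also had 51 at 1.9 kb upstream of the start (chr4:35106324-35106847), an interval that is listed for Ifnk, the interferon kappa gene, as well.

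Of the 30 shared pairs, 28 had the higher peak value in mesenchyme, against 93.9% of all 2083 overlapping pairs of the tables. The log2 ratio of epithelium to mesenchyme had a median of -0.87 over the 30 pairs (interquartile range -1.33 to -0.42) and -0.97 over all pairs (-1.35 to -0.58). By gene the medians were -0.39 in Lrrc1, -0.60 in Frmd4b, -0.66 in Tanc1, -0.78 in Myo16, -1.24 in Iqgap2 and -1.34 in Mob3b. In Lrrc1 the ratios of 3 of 4 pairs lay above the interquartile range of all pairs, and in Mob3b and Myo16 none did. Frmd4b, Tanc1 and Iqgap2 also had pairs above it. These are ratios of 4 to 6 intervals per gene with no replicate, so the order of the genes is a description. Across the 30 pairs, which come from the same pair of libraries and are not independent, Pearson's r of the log2 peak values was 0.62 and the Spearman correlation was 0.617, against 0.717 and 0.659 over all pairs.

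**Figure D3:**
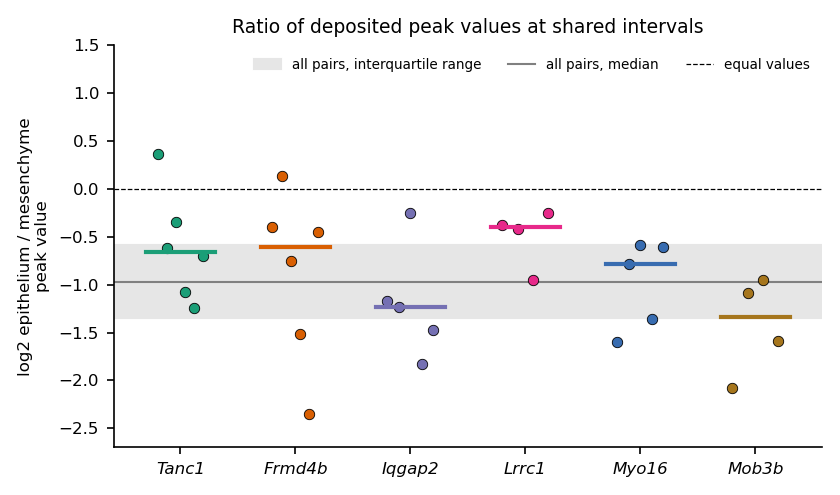
Log2 ratio of the epithelium to the mesenchyme peak value at each shared interval, ordered within a gene from start to end. Points are intervals, coloured bars gene medians, the grey band the interquartile range of all 2083 pairs and the dashed line equal values. In Lrrc1 3 of 4 points lie above the band and 1 is at -0.95, and points of Mob3b lie at or below -0.95.

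**Figure D4:**
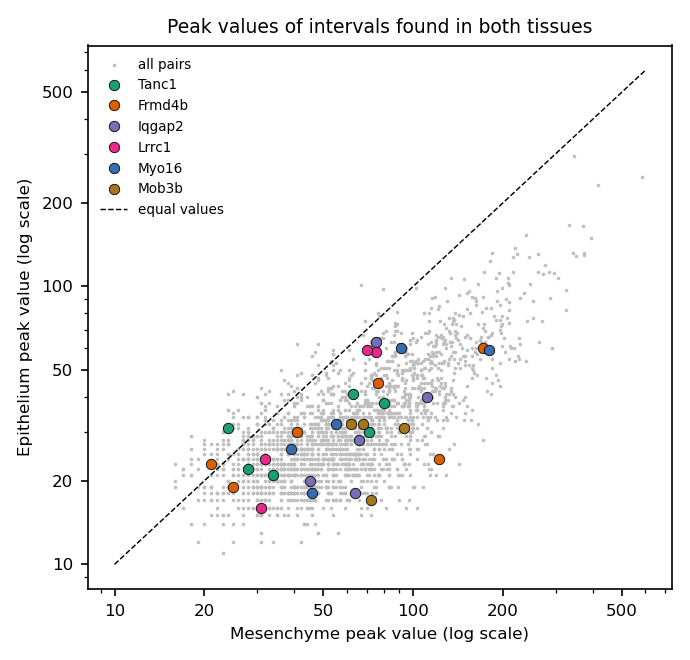
Epithelium against mesenchyme peak value of overlapping intervals on log axes, with all 2083 pairs in grey, the 30 pairs of the 6 genes in colour and a dashed line at equal values. All but 2 coloured points, 1 of Tanc1 and 1 of Frmd4b, lie below the line, as most grey points do.

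Intervals in 1 tissue had lower peak values than shared ones. In epithelium the 6 unshared intervals had a median of 24 (13 to 37), against 30.5 (16 to 63) for the 30 shared ones. Over the whole epithelium table the medians were 19 and 29. In mesenchyme the 17 unshared intervals had a median of 31 (16 to 61), against 65 (21 to 179) for the 30 shared ones, and the whole-library medians were 30 and 58. Of the 17, 3 had an epithelium interval less than 1 kb away and 6 less than 5 kb away. None of the 6 unshared epithelium intervals had a mesenchyme interval within 1 kb, and 3 had one within 5 kb.

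Neighbouring intervals of a gene were mostly more than 5 kb apart. The median distance between neighbouring centres was 24.6 kb in epithelium (30 distances, 0.992 to 367.2 kb) and 17.0 kb in mesenchyme (41 distances, 0.752 to 218.9 kb). Over all genes with at least 5 intervals, the 6 included, it was 30.8 kb in epithelium and 21.3 kb in mesenchyme. The 30 epithelium distances of the 6 genes are thus part of the 76 they are set beside. Spacing follows from interval number and gene length, so it is a description. Distances under 5 kb made up 5 of 30 (16.7%) in epithelium and 9 of 41 (22.0%) in mesenchyme, and 18.4% and 22.0% over all genes with at least 5 intervals. The close neighbours in epithelium were at 1.6 and 2.6 kb in Frmd4b, 162.3 and 163.8 kb in Mob3b, 228.0 and 229.8 kb in Tanc1, 5.6 and 8.2 kb in Lrrc1, and 259.6 and 263.5 kb in Iqgap2. In 4 of these 5 both intervals were shared with mesenchyme, Lrrc1 being the exception. Myo16 had no close neighbours in epithelium.

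Few of the intervals lay at gene starts. In epithelium 33 of 36 (91.7%, 78.2 to 97.1%) were inside the gene, against 77.1% of all listed intervals, and 3 (8.33%, 2.87 to 21.8%) lay within 5 kb of the listed start, against 20.6%. In mesenchyme 42 of 47 (89.4%, 77.4 to 95.4%) were inside, against 76%, and 6 (12.8%, 5.98 to 25.2%) were within 5 kb, against 23.6%. All 6 genes are long, and the part of gene length in these shares was not tested. The shares also differ in measure. Those of the 6 genes used the position relative to the member alone. Those of all listed intervals counted any listed gene that qualified. On CpG islands there were 0 of 36 in epithelium, for which the Wilson upper limit is 9.64% and the limit that 3 counts set is 8.33%, where all listed intervals had 4.2%, and 1 of 47 in mesenchyme (2.13%, 0.377 to 11.1%), where all had 8.45%. None of the 36 and none of the 47 touched an input interval, against 0.42% and 0.139% of all listed intervals. The input lists hold only 17 intervals in epithelium and 24 in mesenchyme, so nothing is read from these zeros. For the 3 genes with an input interval on their chromosome the nearest was 11700.5 kb away. The annotation used here holds no exons, so intervals inside a gene were not assigned to introns or exons.

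Genes related to the 6 by family were counted next. Of 36 paralogues, 6 had an epithelium interval and 16 a mesenchyme interval, and all 6 were in the second group too. Over all 21631 protein-coding genes, 8.92% had an epithelium interval and 21.4% a mesenchyme interval. Genes of 100 kb or longer had 29.7% and 55.6%, and the median length of the paralogues was 82.9 kb. Of the 36 paralogues 23 are myosins, and the 6 with epithelium intervals were among these. Myo10, which moves to the tips of filopodia, had 4 epithelium and 7 mesenchyme intervals, with peak values of 55 in epithelium and 63 in mesenchyme at 84.8 kb. The class I myosins Myo1a and Myo1e, which link membranes to actin, had 1 interval each per tissue, with 44 in epithelium and 74 in mesenchyme past the end of Myo1a, and 42 and 58 inside Myo1e. Myo9a, another unconventional myosin gene, had 42 and 40 at 5.2 kb upstream. Tanc2, Frmd4a, the other IQGAP and MOB genes, Scrib, Erbin and Lrrc7 had none in epithelium.

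Of 30 other polarity and junction scaffold genes, with a median length of 86.1 kb, 8 had an epithelium interval and 17 a mesenchyme interval. The shares were 8.92% and 21.4% over all protein-coding genes, and 29.7% and 55.6% over those of 100 kb or longer. Dlg2, a membrane-associated guanylate kinase gene, reached 131 in epithelium and 262 in mesenchyme at 1015 kb, above every value of the 6 genes in the same tissue. Tjp1, which encodes the tight junction protein ZO-1, had 47 and 48 at 5.0 kb upstream. Magi2, another guanylate kinase scaffold, had 31 and 81 at 1303.2 kb. Pard3, which encodes the PAR3 scaffold, had 3 epithelium and 9 mesenchyme intervals, with 31 and 41 at 385.0 kb.

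Of 14 genes of the Hippo and NDR kinase pathway, in which MOB proteins act, 4 had an epithelium interval and 6 a mesenchyme interval. Their median length was 64.6 kb. Here too the shares to compare are 8.92% and 21.4% over all protein-coding genes, and 29.7% and 55.6% at 100 kb or longer. Nf2, which encodes merlin, had 65 in epithelium and 155 in mesenchyme at 14.9 kb. Stk3, the MST2 kinase gene, had 36 and 65 at 9.7 kb. The TEAD transcription factor genes Tead3 and Tead1 had 30 and 39 at 1.4 kb and 16 and 67 at 122.3 kb. The median number of epithelium intervals was 0 in each of the 3 lists.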

How the data were processed

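The 4 libraries, 1 Sp6 and 1 input library for each tissue, were grouped by the sample titles. Per the submitters' processing notes, reads were processed on mm9 with MACS 1.3.7.1. The sources used here do not give the aligner, the thresholds or the use of inputs. Intervals were called per library. Positions, lengths and distances are in bp as the authors deposited them, and whether interval starts count from 0 or 1 is not stated. The peak value and the average value are a fragment density signal that the authors deposited in gene tables, with bins of about 32 bp, per the file headers and values. The other deposited columns count CpG islands and listed genes. The tables hold 2381 of 3811 epithelium and 7211 of 11436 mesenchyme intervals. They list genes from 10 kb upstream of the start to past the end.

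Intervals were matched to the 6 genes by name and called shared at an overlap of at least 1 bp. Table names were matched to RefSeq symbols and synonyms (GRCm38.p6), 1999 of 2239 in epithelium and 4817 of 5391 in mesenchyme, for names and lengths. Python 3.11.15, pandas 2.3.3 and scipy 1.17.1 were used, and the overlap step was tested on simulated data. Named were the 6 genes, the other genes with the most epithelium intervals (11, because of ties), up to 4 genes of each of 3 related gene lists by epithelium peak value, and genes listed for the same intervals. The genes and lists were chosen with earlier results of these data known. Other thresholds, overlap rules and interval subsets were tried.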

Additional observations from a re-analysis of the deposited data

How the results depend on the processing

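The number of intervals of the 6 genes followed the threshold on peak value. Among the 50% of listed intervals with the highest peak value, 19 of 36 epithelium and 29 of 47 mesenchyme intervals remained. With the mesenchyme list cut to as many intervals as epithelium has, 24 mesenchyme intervals remained and 58.3% of the epithelium intervals were shared, where 60.4% of all listed ones were. That setting holds fewer intervals by construction. Under it the epithelium counts, on which the genes were chosen, stood at 8 against 4 mesenchyme intervals in Tanc1, 6 against 4 in Frmd4b and Myo16, 6 against 5 in Iqgap2, 5 against 2 in Lrrc1 and 5 against 5 in Mob3b. Counts stayed within 1.5 times when intervals with another listed gene or outside the gene were left out. Leaving out intervals on input could change no count, because none of the 36 and none of the 47 lay on input. The shared share was 83.3% with an overlap of at least 50% of both intervals (81.6% over all listed epithelium intervals), 75% with centres at most 100 bp apart (83.6%) and 83.3% against the mesenchyme gene table only (87.3%). Among the 50% of intervals with the highest peak value in each library it was 89.5% (90.5%). Median spacings stayed within 1.5 times under both alternatives. No paired analysis was possible because each group is 1 library and the labels carry no replicate numbers. The depth of the libraries is unknown, so an interval called in 1 tissue is not shown to be absent from the other.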

Other observations

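Intervals with more than 1 local peak, as the authors' tables count them, made up 6 of 36 in epithelium (16.7%, Wilson 95% interval 7.87 to 31.9%), against 21.4% of all listed epithelium intervals, and 4 of 47 in mesenchyme (8.51%, 3.36 to 19.9%), against 18.1%. The epithelium intervals of the 6 genes were 353 to 1202 bp long (median 588.5 bp, library median 543 bp). The mesenchyme intervals were 420 to 1540 bp long (median 661 bp, library median 632 bp). In 6 of the 30 shared pairs the epithelium interval was the longer one, 3 of them in Frmd4b, 2 in Lrrc1 and 1 in Myo16. Over all pairs it was the longer one in 282 of 2083.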
